A study of Schizosaccharomyces pombe with 22 samples.

Results

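The 2 arrays described here carried DNA that was immunoprecipitated with Pst3-GFP from the fission yeast Schizosaccharomyces pombe and was set against input DNA of wild-type cells. Pst3-GFP is Pst3 fused to green fluorescent protein, so that chromatin bound to Pst3 can be pulled down through the tag. The arrays held spotted probes for intergenic regions (IGRs). They were found by their titles, which name this pairing, among the 22 samples of a series on Pst3 and the nucleolus. For comparison, 3 IGR arrays of histone H3 from wild type, hst2D and hst4D and 2 IGR arrays of Pst3-GFP and beads were used. The dye of the deposited channel was judged from 2 expression arrays labelled as repressed pst3nmt. Array 1 was labelled with the immunoprecipitate in Cy3 and the input in Cy5, and array 2 with the dyes exchanged, so the 2 arrays may carry the same extracts. Nothing in the labels says that they came from separate cultures, and p-values then measure only the spread between these 2 arrays. The sources used here do not give the promoter that drove the GFP fusion or whether it replaced pst3. Of 5149 probe names on each array, 208 were named as missing, and 4941 regions were analysed.

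Pst3 is one of the Sin3 proteins of S. pombe. Sin3 proteins are scaffolds that hold histone deacetylases such as Clr6 and bring them to chromatin, where the removal of acetyl groups from histones is known for lowering transcription. In fission yeast, Clr6 complexes act both at promoters and in the bodies of genes. A region with more immunoprecipitate than input DNA is read as occupied by the tagged protein.

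The readout was the log2 ratio of each region's median spot signal over the authors' reference intensity for that region, a wild-type value by its column name. Each spot set was centred on its median, so 0 is the typical region of an array and 1 is 2-fold above it, and the 2 spot sets of an array were averaged. Regions with a reference of at most 404.75, the lowest 25% (1236 regions, called the low-reference set here), were kept apart from the other 3705, because a small denominator makes a large ratio. A region was counted as agreeing when both arrays lay at least 2-fold on the same side.

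Of the 4941 regions, 4714 matched a gene of the RefSeq annotation. The sources used here give no probe coordinates, so the side of the gene that each probe covers was read from base composition. The reference intensity of ordinary probes followed the GC content of the intergenic gap on the 5′ side of the named gene (Spearman rho 0.449 for 2195 genes on the plus strand and 0.405 for 2195 on the minus strand) more than that of the gap on the 3′ side (0.132 and 0.084). An ordinary region is therefore described as the sequence 5′ of the gene that names it. A further 165 probes are named "long IGR". Which side of the named gene they cover was not settled by this comparison, and some may lie 3′ of that gene, so their ratios are given under the name of the probe only.

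The sequences 5′ of the genes below are printed because they adjoin 4 of the regions highest on both arrays (gto1, gas1, cdc22 and pkd2) and the region with the lowest mean ratio outside the low-reference set (git5). Each is the 250 bases before the annotated gene start in RefSeq assembly ASM294v3, read on the strand of the gene. Capitals mark the motifs that were searched on both strands, which were HomolD (CAGTCACA), the TATA box (TATAAA), a motif known as the CCAAT box, the MluI box (ACGCGT), the cyclic AMP response element core (TGACGT), the forkhead motif (GTAAACA) and a heat shock motif (GAANNTTC). The windows are chrI:5474946-5475195 on the minus strand for gto1, chrI:4880741-4880990 on the minus strand for gas1, chrI:4226720-4226969 on the plus strand for cdc22, chrI:4219501-4219750 on the plus strand for pkd2 and chrII:1463599-1463848 on the plus strand for git5.
gto1: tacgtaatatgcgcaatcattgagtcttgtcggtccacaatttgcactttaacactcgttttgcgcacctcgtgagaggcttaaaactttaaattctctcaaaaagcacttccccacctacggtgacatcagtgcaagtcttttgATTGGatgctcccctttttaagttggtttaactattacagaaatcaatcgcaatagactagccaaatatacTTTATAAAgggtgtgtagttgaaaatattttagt
gas1: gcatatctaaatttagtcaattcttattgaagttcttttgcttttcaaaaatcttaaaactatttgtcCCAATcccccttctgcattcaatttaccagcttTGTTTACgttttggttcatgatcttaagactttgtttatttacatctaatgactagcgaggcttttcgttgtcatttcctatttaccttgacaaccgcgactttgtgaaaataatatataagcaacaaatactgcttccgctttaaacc
cdc22: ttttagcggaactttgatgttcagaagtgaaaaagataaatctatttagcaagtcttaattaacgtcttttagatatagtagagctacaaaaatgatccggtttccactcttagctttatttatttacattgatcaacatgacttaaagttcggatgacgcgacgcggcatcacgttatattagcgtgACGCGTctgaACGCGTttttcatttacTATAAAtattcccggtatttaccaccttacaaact
pkd2: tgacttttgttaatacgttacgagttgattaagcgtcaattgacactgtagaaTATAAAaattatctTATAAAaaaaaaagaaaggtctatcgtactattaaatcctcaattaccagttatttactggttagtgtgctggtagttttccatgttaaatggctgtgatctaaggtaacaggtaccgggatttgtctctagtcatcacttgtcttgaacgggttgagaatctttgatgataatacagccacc
git5: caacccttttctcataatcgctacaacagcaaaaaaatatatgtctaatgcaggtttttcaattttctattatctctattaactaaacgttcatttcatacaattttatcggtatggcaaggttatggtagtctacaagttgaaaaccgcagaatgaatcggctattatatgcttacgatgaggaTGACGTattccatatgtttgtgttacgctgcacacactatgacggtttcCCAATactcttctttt

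Each window ends at the annotated start of its gene. Annotated long non-coding RNAs overlap those of gto1, cdc22, pkd2 and git5. The cdc22 window holds 2 copies of the MluI box, the element through which the MBF factor acts on genes of DNA synthesis, and a TATAAA. The first of these matches begins 62 and the last 35 bases before the gene start. The gas1 window holds a forkhead motif and a CCAAT, and the gto1 window a CCAAT and TATAAA matches on both strands that overlap each other.

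The 2 arrays differed in their optical background. Array 1 had a median signal of 815 over a median background of 15.0, and array 2 a median signal of 1649 over a background of 1200. Spots named as missing read 13.5 on array 1 and 1175 on array 2. Which channel was deposited is not stated. The series holds 2 expression arrays, labelled as repressed pst3nmt, whose deposited channel has a labelled dye. Their background was 2922 for Cy5 and 13.0 for Cy3. The backgrounds of arrays 1 and 2 fit the dye labelled as immunoprecipitate by that measure. The deposited signal was therefore taken as the immunoprecipitate. The ratio of array 2 depended on the reference (Spearman rho -0.912 over 4941 regions), and that of array 1 did so little (-0.082). Spot sets within an array ranked regions alike (rho 0.978 on array 1 and 0.900 on array 2), while the ratios of array 1 and array 2 had a Pearson r of 0.206, with the reference shared by both. Between the arrays the raw signals had a rho of 0.514.

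**Figure D1:**
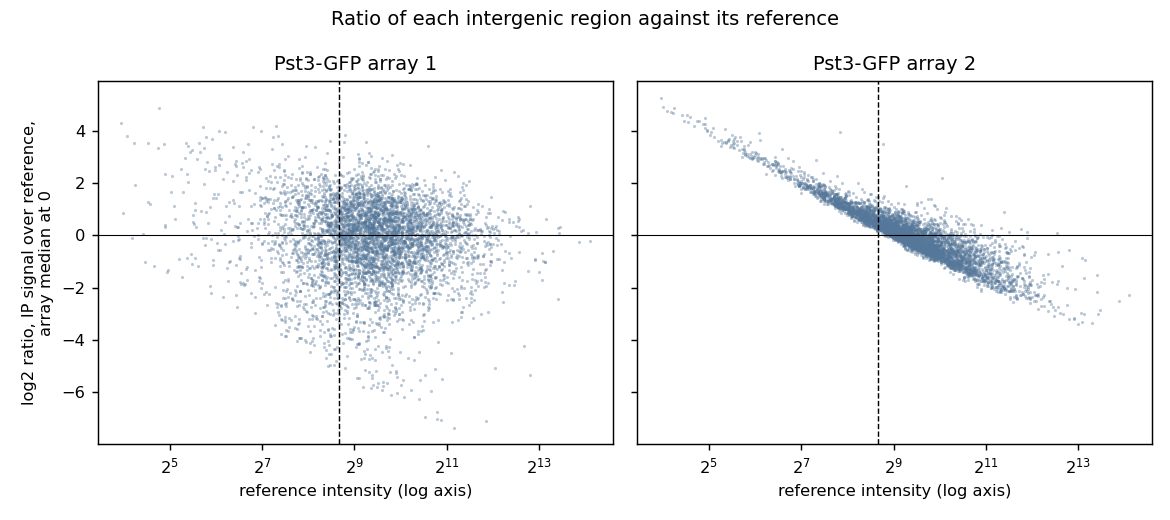
Log2 ratio of immunoprecipitate signal over reference (vertical) against the reference intensity (horizontal, log axis) for 4941 regions on array 1 (left) and array 2 (right), with a dashed line at the low-reference limit of 404.75. Array 2 falls along a line with the reference (rho -0.912), and array 1 forms a level cloud (rho -0.082).

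Outside the low-reference set, 17 of 3705 regions (0.459%) lay at least 2-fold above the median on both arrays. Their adjoining genes are of mixed function, and no function list held more than 2 of them. Alone, array 1 had 640 regions (17.3%) and array 2 had 39 (1.05%) at that level, and 48 regions (1.3%) were 2-fold above on one array and 2-fold below on the other. Every one of the 4 spot sets was past 2-fold for 12 of the 17. No region of the 17 was called by limma over all 4941 regions (adjusted p from 0.0605 for gto1 to 0.803 for asf1), where every mean of the n = 2 arrays carried the same SE of 0.842.

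The region of gto1 (SPAC1039.11c), an alpha-glucosidase that cleaves glucose from sugar chains, had the highest mean. Its signals were 9948.5 and 8130 on array 1 and 6014 and 6204 on array 2, over a reference of 613. Its log2 ratios were 3.57 on array 1 and 1.91 on array 2. The region of gas1, a glucanosyltransferase that lengthens the beta-glucan chains of the cell wall, had the highest array 2 signals of the 17. It had signals of 9957 and 7504 on array 1 and of 13492 and 12165 on array 2, over a reference of 1063.25. Its ratios of 2.72 and 2.19 were the most alike among the 4 highest regions.

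Among genes of DNA and nucleotide metabolism, the region of cdc22, the large subunit of ribonucleotide reductase that makes the building blocks of DNA, had signals of 4198.5 and 4371.5 on array 1 and 3266 and 3012 on array 2, over a reference of 435. Its ratios were 3.00 and 1.45. The region of hrq1, a RecQ-type DNA helicase, had ratios of 2.41 and 1.00, and that of ade10, an enzyme of purine synthesis, 1.76 and 1.04. Both hrq1 and ade10 lay at the limit on array 2.

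Among genes of chromatin and transcription, the region of spt3, a subunit of the SAGA coactivator that meets the TATA-binding protein, had ratios of 1.94 and 1.04. The region of asf1, a chaperone that hands histones H3 and H4 to assembling nucleosomes, had 1.06 and 1.09, the lowest mean of the 17. The region of SPAC1952.04c, whose protein is uncharacterized, lay at 1.09 and 1.20 and adjoins gcn5, the acetyltransferase of SAGA, on the divergent side.

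The other members act in several parts of the cell. The region of pkd2, a calcium channel of the plasma membrane, had signals of 5268 and 5330 on array 1 and 4174 and 4571 on array 2, with ratios of 2.56 and 1.18. The region of fta1, a kinetochore protein, had ratios of 1.75 and 1.02, that of gda1, a Golgi nucleoside diphosphatase, 1.88 and 1.02, and that of yip11, of the complex that assembles spliceosomal particles, 1.43 and 1.03. The region of clg1, a cyclin, had 1.29 and 1.13. The region of SPAC3A11.11c, a pyridoxal reductase, had 1.45 and 1.40, and that of SPACUNK4.15, a 2′,3′-cyclic-nucleotide 3′-phosphodiesterase, 1.58 and 1.29. The regions of the uncharacterized genes SPAC750.07c and SPCC61.05 had 1.49 and 1.38, and 1.35 and 1.32. Array 1 gave the larger ratio for all of the 17 except SPAC1952.04c and asf1.

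Just below the limit lay glo1, a glyoxalase (2.12 on array 1 and 0.97 on array 2), asn2, an asparagine synthase (1.57 and 0.95), and SPAC1687.07 (2.31 and 0.94). The reference of the 17 members ranged from 407 to 1063. Signals of all 17 exceeded the 95th percentile of missing spots on both arrays.

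**Figure D2:**
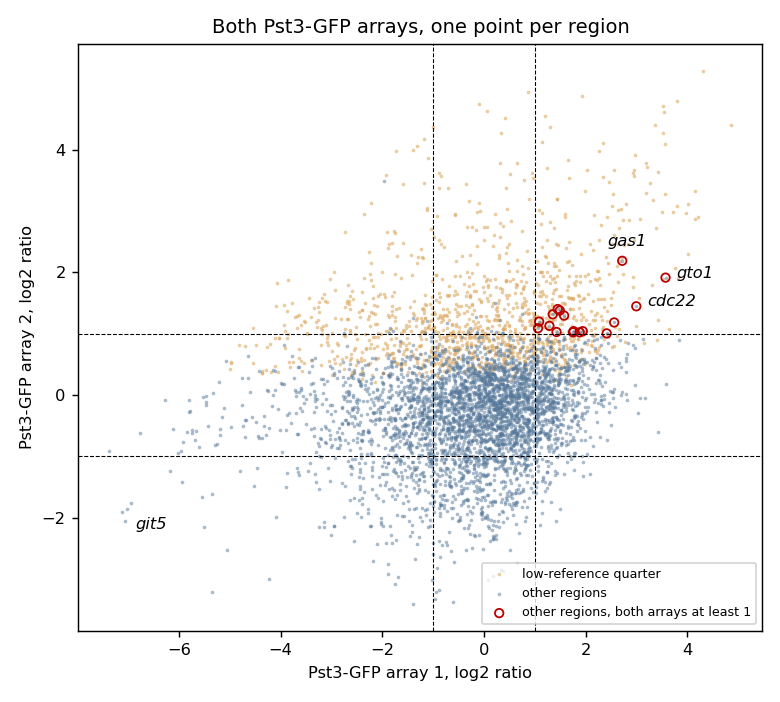
Log2 ratios of the regions on array 2 (vertical) against array 1 (horizontal), with the low-reference set in orange, the other regions in blue and the 17 agreeing regions above ringed in red. Dashed lines stand at 2-fold, and gto1, gas1 and cdc22 lie farthest to the upper right among the ringed regions while git5 lies at the lower left.

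When the local background was subtracted from each signal, 15 of the 17 were still at least 2-fold above on both arrays, within a larger set of 188 regions (5.07%). The exceptions were gda1 and fta1, in each of which the local background exceeded the signal in a spot set of array 2 (2009.5 and 2474.5 against signals of 2328 and 2407.5 for fta1). When the trend of each array's ratio on the reference was removed with lowess, 9 of the 17 remained among 56 regions above (1.51% of 3705). These 9 were gto1, gas1, cdc22, pkd2, spt3, clg1, SPACUNK4.15, SPAC750.07c and SPAC3A11.11c. By this measure gas1 had the highest mean among the agreeing regions, with 2.75 on array 1 and 2.81 on array 2, followed by gto1 with 3.55 and 1.91. No region (0.0%) lay 2-fold below on both arrays after the trend was removed. Array 2 left little room for this, since its lowest signal was 1040, against a median of 1649. Even git5, whose array 2 signal did not exceed missing spots, lay only at -0.80 there.

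**Figure D3:**
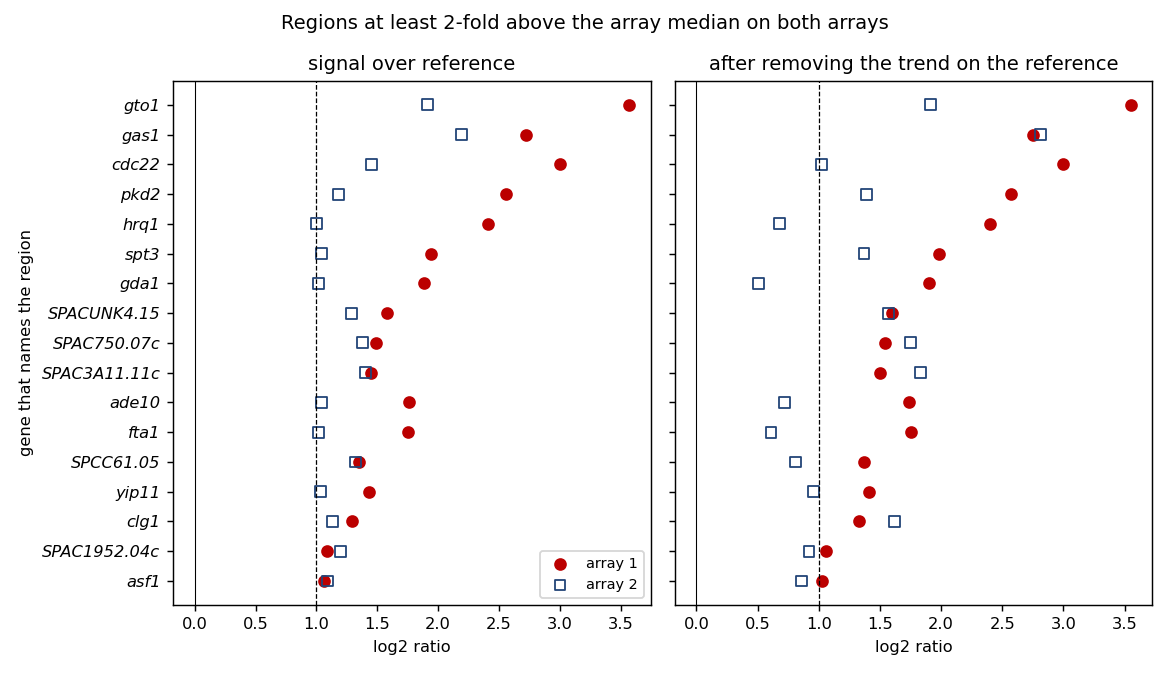
Log2 ratios of the 17 regions above outside the low-reference set on array 1 (filled circles) and array 2 (open squares), ordered by their mean, as signal over reference (left) and after the trend on the reference was removed (right). The dashed line stands at 2-fold, and on the right the squares of 8 regions, such as hrq1 and gda1, lie below it.

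Removal of the trend brought in regions with higher references. Of the 56, 41 had a reference of at least 1086, the highest 25%, where none of the 17 lay. These 41 include the region of ags1, the alpha-glucan synthase of the cell wall (1.65 and 1.33 after the step), ssa1, a heat shock protein (1.67 and 1.35), and map2, the P-factor mating pheromone (1.79 and 1.51). The region of mug105 in the low-reference set was also above by every one of these measures. Its signals were 3357 and 3920.5 on array 1 and 3117 and 3159 on array 2, over a reference of only 158.75. It was also 2-fold above on the other IGR arrays described below. Its ratios were 6.08 and 2.62 on the beads arrays and 1.25, 2.0 and 2.05 on the H3 arrays of wild type, hst2D and hst4D.

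The gap between gas1 and bgs3, which are transcribed away from each other, is 3544 bases long and adjoins the regions of both genes. The gene bgs3 encodes a catalytic subunit of beta-glucan synthase, so both genes act on the same wall polymer. The bgs3 probe had signals of 4013 and 4649.5 on array 1 and 2800 and 2622 on array 2, and ratios of 2.68 and 0.90. The long IGR probe of gas1 had ratios of 0.58 and -0.58 over a reference of 2991, and of 0.79 and 1.18 after the trend was removed. The gas1 and bgs3 probes were thus both above on array 1, and the long IGR probe lay between 0 and 1 there. The scr1 region, across the 6162-base gap from clg1, had ratios of 1.00 and 0.10, and scr1 encodes the glucose-sensing repressor. The gcn5 region, on the other side of the SPAC1952.04c gap, had 2.94 and 3.67 over a reference of only 69.5.

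Across all divergent genes with both regions on the arrays, the ratios of partners in a shared gap were modestly correlated, more so when the gap was short. For 550 pairs with a gap under 1000 bases, the trend-corrected ratios of the 2 partners had a Pearson r of 0.402 on array 1 and 0.192 on array 2. For 499 pairs with longer gaps, r was 0.072 and 0.118. Partners in a short gap may share probe sequence and base composition, and their log2 references had an r of 0.504 in short and 0.306 in long gaps.

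At the right end of chromosome I, neighbouring regions stood above the median together. In order toward the end, the trend-corrected ratios were 2.46 and 1.51 for ftm3, 1.93 and 1.48 for ftm4, 1.12 and 1.59 for SPAC750.06c, and 1.54 and 1.75 for SPAC750.07c. Without the trend step SPAC750.07c alone was 2-fold above on both arrays, since ftm3 lay at 2.29 and -0.01, ftm4 at 1.75 and -0.13, and SPAC750.06c at 1.07 and 0.91. Farther from the end, SPAC750.03c (2.07 and 0.12), SPAC750.02c (0.15 and 1.52) and SPAC750.01 (-0.42 and -0.07) did not agree on both arrays. Among regions matched to a gene, 74 lie within 100 kb of an end of chromosome I or II. Of these, 6 (8.11%) were above after the step, against 1.51% of all regions, and 10 (13.5%) with background subtracted, against 5.07%. The 6 comprise 4 of 26 regions at the right end and 2 of 26 at the left end of chromosome I. On chromosome II it was 0 of 2 at the left end and 0 of 20 at the right end. The 227 unmatched regions had no position and were left out of these counts. They include 2 probes named as telomeric, and spac1348.02 and spac1348.03, which were both above after the step.

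**Figure D4:**
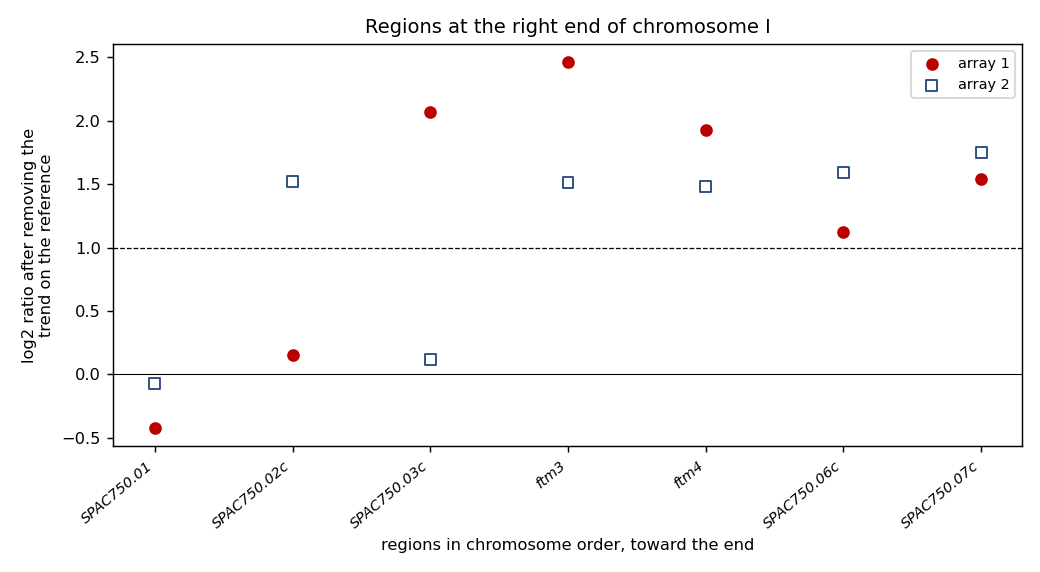
Log2 ratios after removal of the trend on the reference (vertical) for 7 regions at the right end of chromosome I, in chromosome order toward the end, on array 1 (filled circles) and array 2 (open squares). The 4 of these nearest the end, ftm3, ftm4, SPAC750.06c and SPAC750.07c, lie above the dashed 2-fold line on both arrays.

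The study's title names the nucleolus, and ribosomal and other repeated DNA was covered by a few probes. The 2 probes named as the promoter of the 18S ribosomal RNA had ratios of -0.20 and 1.30 on array 1 and of -2.27 and -0.66 on array 2, with references of 17557.5, the highest of all regions, and 2804.5. With the trend removed they lay at 0.38 and 1.5 on array 1 and 1.48 and 1.03 on array 2, so that the second probe, but not the first, was 2-fold above on both. None of 4 probes for 5S ribosomal RNA genes, agreed above, with ratios from -0.36 to 1.19 on array 1 and from -1.56 to -0.22 on array 2. Of 6 centromere probes, the dg and dh repeats among them, none agreed above and 1, the partial dh repeat of chromosome II, agreed below (-2.44 and -1.53). Its array 2 signals were high (9331 and 10579), over a reference of 10876.5. With the trend removed the arrays opposed each other for it (-1.95 and 1.68). The dh1 repeat had ratios of 1.03 and 0.20, and 1.17 and 1.63 after the trend was removed. Of 18 tRNA gene probes, 0 were above and 1 below, that of a tRNA for asparagine (-1.65 and -1.04). Its 2 spot sets on array 2 differed, with ratios of -0.17 and -1.92. With the trend removed it lay at -1.56 on array 1 and 0.10 on array 2.

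The genes of the Sin3 family themselves showed small ratios. The region of pst3 had signals of 1668 and 1941 on array 1 and 3093 and 3462.5 on array 2, with ratios of -0.36 and -0.60. The pst1 region lay at -0.49 and -0.47, the pst2 region at -0.48 and 0.08, and that of clr6, the deacetylase, at 0.93 and -0.24. With the trend removed, pst3 lay at -0.26 and 0.64 and pst2 at -0.44 and 0.61. None of the 4 was called by limma (adjusted p from 0.975 to 0.997 with n = 2 arrays).

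Below the median on both arrays lay 213 of the 3705 regions (5.75%), of which 210 had a reference of at least 1086. Every one of the 4 spot sets was past 2-fold for 179. With background subtracted 140 of them remained below, among 463 regions (12.5%), and with the trend removed none did. The high floor of array 2 left little room for a 2-fold fall below the trend. The region of git5, the beta subunit of the G protein in the glucose-sensing cyclic AMP pathway, had the lowest mean. Its signals were 16 and 19 on array 1 and 1240.5 and 1169 on array 2, over a reference of 1895, and its ratios were -7.07 and -2.06. On array 2 its signal did not exceed missing spots, so only a bound is known there. On array 1 it passed the 95th percentile of missing spots, 16.66, only narrowly.

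The other 9 lowest regions also lay lower on array 1 than on array 2. The long IGR of isp4, an oligopeptide transporter, had ratios of -7.11 and -1.91, and mrpl31, of the mitochondrial ribosome, -7.02 and -1.86. The array 2 signals of the isp4 probe (2033 and 3351) lay over that array's median of 1649. With the trend removed its array 2 ratio was 0.10. The region of mug86, an acetate transporter, lay at -6.94 and -1.76, air1, of the TRAMP complex that marks nuclear RNA for decay, at -6.18 and -1.24, and the long IGR of fbp1, the gluconeogenic bisphosphatase, at -5.93 and -1.42. The region of fol2, a GTP cyclohydrolase, had -5.51 and -2.15. On array 2, mug86, air1, the long IGR of fbp1 and fol2 did not exceed missing spots, and mug86 (signals 16 and 14) did not on array 1 either, so its ratios are bounds on both arrays. The air1 signals on array 1 (20 and 17) lay under their local backgrounds (36.5 and 49). For mrpl31 the signals (15 and 19 on array 1, 1295.5 and 1303 on array 2) passed the 95th percentile of missing spots (16.66 and 1298) only narrowly. The regions of mug115 (-5.36 and -3.20), SPCC794.04c, a transporter (-5.06 and -2.52), and SPAC17A2.10c (-4.22 and -3.0) did exceed them on both arrays. Their references were 7122, 4229.5 and 6559.

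In the low-reference set agreeing regions lay above only. There 254 of 1236 regions (20.6%) were above on both arrays, 0 (0.0%) were below and 180 (14.6%) were past 2-fold in opposite directions. Array 2 left no room for a count below, since its lowest signal was 1040 and these references were at most 404.75. At the smallest references even that signal lay 2-fold above on array 2, so these counts follow in part from the reference. The highest means were those of mse1, a glutamyl-tRNA ligase (4.30 on array 1 and 5.28 on array 2), pro3, of proline synthesis (4.87 and 4.39), cid16, a poly(A) polymerase family member (3.80 and 4.78), pex32, of peroxisomes (3.52 and 4.71), and rbx1, a ubiquitin ligase subunit (3.54 and 4.62). Their references lay between 15.5 and 27.5. The array 2 signals of mse1 were 1712.5 and 1493, near that array's median of 1649, and those of cid16 (1228.5 and 1249) did not exceed missing spots. With background subtracted, the arrays opposed each other for pro3 (4.91 and -4.31) and rbx1 (3.44 and -4.05), as they did for 77 of the 254 regions, while 135 remained above on both. With the trend removed the array 2 ratios of the 5 lay between -0.12 and 0.26, and 2 of the 1236 regions (0.162%), mug105 and srb6, a Mediator subunit, were above on both arrays.

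Limma with Benjamini-Hochberg adjustment at 0.05 called 47 of 4941 regions above (0.951%) and 38 below (0.769%), with 467 at an unadjusted p under 0.05 (9.45%). All 47 lay in the low-reference set (3.8% of it), with references from 15.5 to 164, and all 38 outside it (1.03%). Only 16 of the 38 were 2-fold below on both arrays. The other 22 were called on array 1 ratios from -7.36 to -5.19 with array 2 ratios from -0.94 to -0.07. Since the SE was the same for every region, a call followed from the mean and not from the agreement of the arrays.

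By the function of the adjoining gene, the cell wall list had the highest median on array 1 among lists of at least 15 regions. Of its 32 regions outside the low-reference set, 11 (34.4%) were at least 2-fold above on array 1, against 17.3% of all regions, and 1 (3.12%) was on array 2, against 1.05%. Its median ratio was 0.59 on array 1 and -0.39 on array 2, against -0.04 and -0.27 for all. On both arrays, gas1 was above and the long IGRs of mok13, SPBP23A10.11c and pfl4 were below. With background subtracted 5 of the 32 (15.6%) were above on both arrays, against 5.07% of all regions, and 1 below. These 5 were the glucanosyltransferases gas1 (2.78 and 3.80), gas2 (2.76 and 1.16) and gas5 (1.38 and 2.14) and the glucan synthases bgs3 (2.74 and 1.91) and ags1 (1.63 and 1.92). On the first beads array, described below, gas1 lay at 3.69, gas2 at 5.74 and gas5 at 2.71, but bgs3 at -0.22 and ags1 at 0.56. On the second beads array these 5 lay between -1.09 and 0.92. The list is small, and it was chosen with earlier results known.

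Proteasome subunits, which degrade tagged proteins, had 10 of 29 regions (34.5%) above on array 1 but 0 on array 2, and 0 agreed. Genes of glycolysis and gluconeogenesis had 6 of 18 above on array 1 and 9 of 18 below on array 2, against 17.9% of all, over a median reference of 1475.5, against 831.75 for all regions, and pfk1 and the long IGR of fbp1 were below on both. Nuclear pore genes lay lowest on array 1, with 9 of 22 regions (40.9%) at least 2-fold below, against 912 regions (24.6%) of all, and 0 of 22 agreed.

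Regions of cytosolic ribosomal proteins and of ribosome biogenesis genes had shares below on both arrays near that of all regions. Of 113 regions of cytosolic ribosomal proteins, 0 were above and 7 (6.19%) below on both arrays, against 5.75% of all regions, among them rpp101 (-1.25 and -1.98), rpl3202 (-2.68 and -1.07) and the long IGR of rps2601 (-1.28 and -2.32). With the trend removed 3 were above, those of rpp203, rps13 and rpl1001 (2.65%, against 1.51%). Of 71 regions of ribosome biogenesis and nucleolar genes, 0 were above and 4 (5.63%) below, which included utp16 (-3.03 and -1.41) and imp4 (-1.98 and -1.02), both of the U3 particle that cuts ribosomal RNA. Of 17 regions of RNA polymerase I genes and factors, 0 agreed in either direction. With background subtracted, 1.77% of the cytosolic ribosomal protein regions and 1.41% of the biogenesis regions were above on both arrays, against 5.07% of all. The shares below were then 11.5% and 7.04%, against 12.5% of all.

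Chromatin genes had 2 of 116 regions above (1.72%, spt3 and asf1, against 0.459% of all regions) and 6 below (5.17%, against 5.75% of all). Those below included hfi1, a further SAGA subunit (-3.41 and -1.12), slm9 of the HIR chaperone (-2.61 and -1.15) and hht2, a histone H3 gene (-1.42 and -2.12), so SAGA subunits appeared on both sides. Transporters had 0 of 164 above and 16 (9.76%, against 5.75% of all) below, over a median reference of 1063.5. Kinases and phosphatases had 0 of 117 above and 10 (8.55%, against the same 5.75%) below, with ppa1, the catalytic subunit of protein phosphatase PP2A, at -3.14 and -2.16. Transcription factors had 0 of 91 above and 2 (2.2%, against 5.75%) below, cuf1, which senses copper (-4.52 and -1.48), and the long IGR of SPCC320.03. None of the regions of proteasome, nuclear pore and translation factor genes agreed on both arrays.

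**Figure D5:**
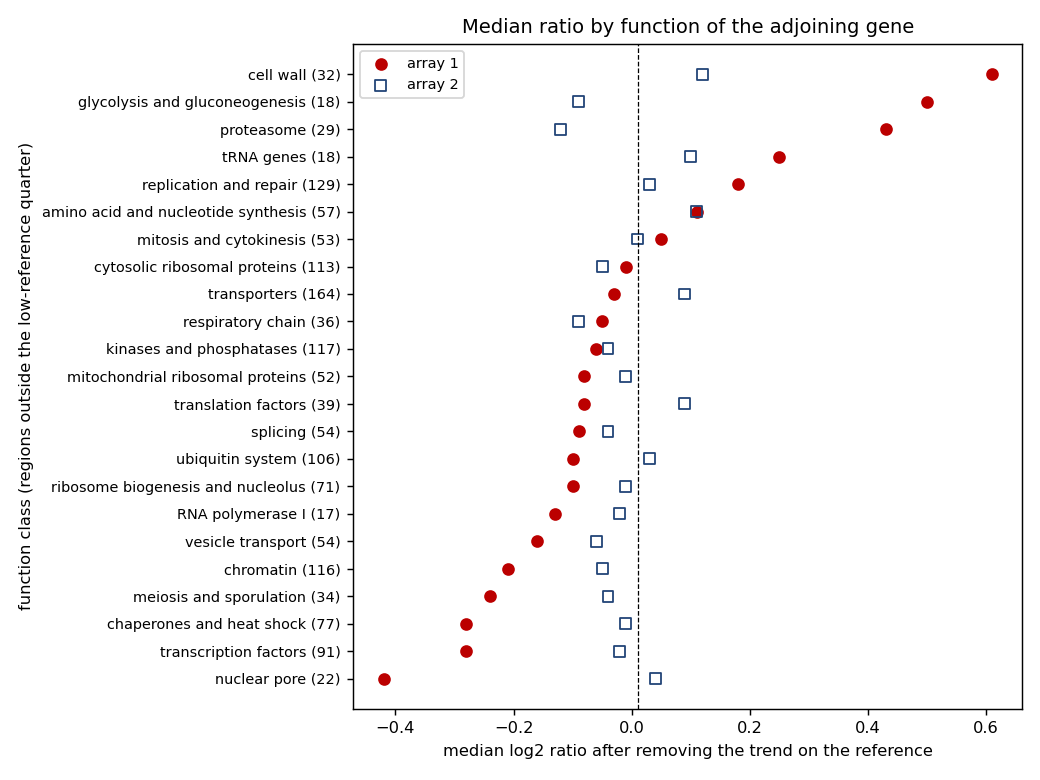
Median log2 ratio after removal of the trend on the reference (horizontal) for function classes with at least 15 regions outside the low-reference set, on array 1 (filled circles) and array 2 (open squares), with the number of regions in brackets. The dashed line is the median of all regions (0.01), and cell wall genes lie farthest to the right on array 1 (0.61) with 0.12 on array 2.

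Most of the 17 regions above lay on chromosome I, which held 12 of them (0.783% of its 1532 regions). Chromosome II held 1, clg1 (0.0759% of 1318), and chromosome III held 4 (0.587% of 681), and these shares were not tested. Regions below made up 5.94%, 5.08% and 6.31% of those on chromosomes I, II and III. Divergent gaps held 8 and tandem gaps 9 of the 17. The gap 5′ of the 17 genes had a median length of 1062 bases, against 833 bases for all 3377 ordinary regions with a window, and that of the 56 trend-corrected regions (48 with a window) was 1516 bases. Long IGR probes held 0 of the 17 and 29 of the 213, which is 17.8% of the 163 long IGR regions, against 5.19% of ordinary ones. Their median reference was 1927.

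The motifs were counted, with no test, in promoter windows from 250 bases before to 50 after the annotated gene start. A TATAAA was found in 10 of 17 windows of the regions above (58.8%), 64 of 172 of those below (37.2%) and 46.0% of all 3377. The forkhead motif was in 4 of 17 (23.5%), against 15.8% of all, and the CCAAT in 8 of 17 (47.1%), against 44.1%. The MluI box was in 2 of the 17, cdc22 and asf1 (11.8%), against 3.26% of all. The HomolD box of ribosomal protein promoters was in 0 of 17 windows above, 1 of 172 below (0.581%) and 3 of 48 of the trend-corrected set (6.25%), against 3.14% of all. The cyclic AMP response element core was in 0 of 17, against 6.49% of all, and the heat shock motif in 2 of 17 (11.8%), against 10.7%. The median GC content was 33.3% above, 35.7% below and 33.3% in all windows, and the reference rose with GC (Spearman rho 0.409 over 4558 regions).

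The other IGR arrays of the series give a comparison on the same reference. They comprise 3 arrays of histone H3 immunoprecipitates, from wild type, hst2D and hst4D, and 2 arrays whose titles name a Pst3-GFP immunoprecipitate and beads, while their channel labels name Pst3-GFP input in Cy3 and beads in Cy5. The deposited channel of these arrays is not stated either. The median background was 121 on the first beads array and 1064 on the second. Whether these 2 arrays hold the same channel was not settled. Limma over the 2 Pst3-GFP arrays minus the 3 H3 arrays called 0 of 4941 regions above (0.0%) and 0 below (0.0%), while 606 had an unadjusted p under 0.05 (12.3%). The H3 arrays were pooled as one group although they differ in genotype, so the spread within that group includes genotype. Array print and antibody also differ between the groups and cannot be told apart. The H3 signals exceeded missing spots in only 2485, 568 and 555 of the regions for wild type, hst2D and hst4D, so low occupancy was not detectable there. On the wild-type H3 array 0 of the 17 regions above lay 2-fold on either side, with values from -0.66 to 0.82, against 1.67% of all regions above, and 147 of the 213 regions below were 2-fold below there too, as were 24.6% of all regions. On the hst4D array 3 of the 17 were 2-fold above, against 0.756% of all regions, which were SPAC1952.04c (1.31), gda1 (1.17) and SPCC61.05 (1.06). On the hst2D array none of the 17 was. The H3 ratios fell with the shared reference (Spearman rho -0.919 for wild type, -0.974 for hst2D and -0.976 for hst4D). Of the 213 regions below, 210 had a reference of at least 1086, where a low H3 ratio is usual. Whether the H3 arrays share more with the Pst3-GFP arrays than this reference was not tested.

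On the first beads array, 7 of the 17 regions were 2-fold above, against 17% of all regions. The values there were 4.64 for spt3, 3.80 for fta1, 3.69 for gas1, 3.68 for gda1 and 3.02 for yip11, while gto1 had 0.38, cdc22 0.49 and pkd2 -0.91. On the second beads array 3 of the 17 were above, against 3.62% of all regions, which were SPCC61.05 (3.94), fta1 (1.07) and cdc22 (1.05). Its signals exceeded missing spots in 359 of 4941 regions, and the 2 spot files of the first beads array were identical. Whether the DNA on the beads arrays bears on the ratios of gas1 and spt3 was not tested.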

How the data were processed

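Spotted 2-colour arrays of DNA from S. pombe were used through the deposited files, which hold the median signal intensity and local background intensity of 1 channel per spot set and a reference intensity made by the authors, identical across IGR arrays. The sources used here do not say how it was made, nor name the scanner or filters. From these, log2 ratios of signal over reference were computed for 4941 regions (probe names that occur more than once were averaged), centred per spot set and averaged per array, without loess. No background was subtracted from the deposited signal in the main setting. The authors' deposited value table holds log2 values with a floor of -6.64 and medians of 0.88 and 0.80, whose scale, centring and direction stay unknown, and was not used. Depth for arrays is limited by their number.

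Limma 3.58.1 in R 4.3.3 (lmFit and eBayes against 0, Benjamini-Hochberg over all regions) was tested on simulated data. Python 3.11.15 and statsmodels 0.14.6 (lowess) were used. Members, function lists (matched to RefSeq product names) and settings were chosen with earlier results of these data known. Named were pst1, pst2, pst3 and clr6, the 10 highest and 10 lowest regions past 2-fold in all spot sets, the 5 highest in the low-reference set (none was 2-fold below there), and up to 3 agreeing members per list. Regions named beyond this rule were chosen after their values were seen. Alternatives were other background corrections, lowess on the reference, no reference, single spot sets, dim regions left out, other limits and each array alone. Replicate numbers 1 and 2 were given in accession order. The planned promoter windows were read from the RefSeq genome.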

Additional observations from a re-analysis of the deposited data

How the results depend on the processing

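The agreement counts outside the low-reference set, 17 regions above and 213 below, depend on the background, the reference and the threshold. They were 188 above and 463 below with background subtracted, 69 above with normexp (293 below), 56 and 0 with lowess on the reference, and 187 and 0 without division by the reference. Without division no region could lie 2-fold below on array 2, whose lowest signal was 1040 and median 1649. At 1.5-fold they were 103 and 505, at 4-fold 1 (gas1) and 19, and 7 above with regions at or below the median reference set apart (213 below). Without replicate 1 or 2, 39 to 640 regions were above and 663 to 912 below on the remaining array. Both counts stayed within 1.5 times with either spot set alone, with all 4 spot sets past 2-fold and with dim regions left out.

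Limma calls (47 above and 38 below) were 0 and 0 with background subtracted, with lowess on the reference, without division by the reference and with the second spot set alone, where 288, 477, 291 and 414 regions had an unadjusted p under 0.05. They were 405 and 304 with normexp, 19 and 6 with the first spot set alone, and 132 and 67 with an intensity trend. Among regions over the median reference 0 were called above and 35 below, and with dim regions left out 43 and 28. Calls for Pst3-GFP minus H3 arrays (0 and 0) were 161 and 17 with normexp and 168 and 178 with quantile normalization. Leaving out each array in turn gave 0 to 1748 above and 0 to 1783 below. The highest counts came without Pst3-GFP replicate 2, and 186 and 4 without Pst3-GFP replicate 1, where the lone Pst3-GFP array is assumed to vary like the H3 arrays. No calls were made without each H3 array or without the low-reference set. The cause was not tested.

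Named regions past 2-fold on both arrays changed sign in the mean in 2 settings. With background subtracted, rbx1 had a mean of -0.30, gda1 of -0.84 and fta1 of -1.17. Without division by the reference the mean was -0.58 for mse1, -0.95 for cid16, -0.98 for pex32 and -0.73 for rbx1, and it was 0.82 for spt2, 0.08 for the asparagine tRNA, 1.51 for the long IGR of SPBP23A10.11c, 0.32 for pub3, 0.27 for rpp101, 0.38 for wtf13, 0.55 for pfk1, 0.32 for sec8, 0.62 for hht2, 0.72 for the long IGR of rps2601, 0.59 for usp107, 0.27 for rpl3202 and 0.04 for reg1. Among the Sin3 genes and clr6, which were not past 2-fold, the mean of pst3 was 0.10 with background subtracted, 0.19 with lowess and 1.06 without division, that of pst2 0.13, 0.09 and 0.41, and that of pst1 0.04 without division. Without replicate 1 pst2 was at 0.08 and clr6 at -0.24. No paired analysis was possible because replicate numbers were given in accession order and name no shared source. The alternative with the authors' value table was not run, because at most 1.14% of its values equal a ratio from the scanner files.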
